A study of Rattus norvegicus with 6 samples.

Results

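Eicosanoids are oxygenated lipids that cells make from arachidonic acid, and the genes described here encode 10 proteins of their synthesis: the lipoxygenases Alox15, Alox12 and Alox5 with the partner proteins Alox5ap, Lta4h and Ltc4s, and the cyclooxygenases Ptgs1 and Ptgs2 with the prostanoid synthases Ptges and Ptgis. They were taken as the probe sets of the array whose only annotated symbol is one of these names. That gave 11 probe sets for 10 genes, of 15310 probe sets for 14506 genes in all, and where a gene had more than 1, the brightest on average over the 6 arrays stands for it. Alox15 was chosen by its RAP minus control change in log2 signal on these arrays, the same contrast as described here, so its values are a description without a test. The other 9 genes were added for their place in the pathway, with earlier results of these data known. The arrays measured left atrial tissue of adult male Sprague-Dawley rats, 3 after rapid atrial pacing (RAP) with a stimulus every 70 ms and 3 after control pacing with one every 140 ms, both for 48 hours through an electrode implanted on the right atrium. A RAP rat and a control rat were paced side by side as a pair, and pairs were kept only where both yielded RNA of high quality. The rats are called RAP 1 to RAP 3 and control 1 to control 3 by the replicate number in their labels. The labels do not say which rats were paced together, and rats of the same number were taken as a pair here. All 6 rats drank atenolol and received heparin before the hearts were rinsed and the left atria taken, and the control atria were paced as well, so neither group is an unpaced atrium. The 140 ms of control pacing equal the ventricular interval that the RAP rats had with conduction of every second atrial beat.

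Phospholipases release arachidonic acid from membranes. Lipoxygenases then add oxygen to it at a fixed carbon, while cyclooxygenases turn it into the endoperoxide from which prostaglandins, prostacyclin and thromboxane are made. Alox5 works on the nuclear membrane with Alox5ap and starts the leukotrienes, of which Lta4h makes the neutrophil attractant leukotriene B4 and Ltc4s the cysteinyl leukotrienes. The pathway is spread over cell types. Leukotriene genes are known from macrophages, neutrophils and mast cells, Alox12 and Ptgs1 from platelets, and Ptgis from endothelium, smooth muscle and serosal linings. In rodents Alox15 is the leukocyte-type lipoxygenase, known from resident macrophages of body cavities in mice, while in rabbits the enzyme is best known from reticulocytes, the youngest red blood cells, in which it attacks organelle membranes.

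Promoter sequence was taken from the RefSeq promoter table of rat build GRCr8, which matched 7 of the 10 genes, without Alox15, Alox5ap and Ptgis. The 250 bases before the start of 4 genes are shown because they are the ones with an entry among the members that kept together over the arrays (Alox5, Lta4h and Ptges) and the cyclooxygenase that was lower in every pair (Ptgs1). Capitals mark every match, on either strand, to the GC box GGGCGG, the PU.1 core GAGGAA, the STAT6 site (TTC, any 4 bases, GAA) and the erythroid GATA site AGATAA, and the matches shown do not overlap one another.
Alox5, chr4:151251127-151251376, minus strand: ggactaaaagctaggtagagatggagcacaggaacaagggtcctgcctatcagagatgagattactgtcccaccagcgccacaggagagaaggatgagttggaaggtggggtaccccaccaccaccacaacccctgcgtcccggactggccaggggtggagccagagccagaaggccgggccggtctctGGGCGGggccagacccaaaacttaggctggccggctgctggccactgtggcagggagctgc
Lta4h, chr7:29856621-29856870, plus strand: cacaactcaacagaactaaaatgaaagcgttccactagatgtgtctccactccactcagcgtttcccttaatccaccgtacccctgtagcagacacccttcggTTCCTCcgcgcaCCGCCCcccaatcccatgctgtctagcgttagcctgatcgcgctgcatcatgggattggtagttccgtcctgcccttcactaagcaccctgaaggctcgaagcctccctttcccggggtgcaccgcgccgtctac
Ptges, chr3:34586988-34587237, minus strand: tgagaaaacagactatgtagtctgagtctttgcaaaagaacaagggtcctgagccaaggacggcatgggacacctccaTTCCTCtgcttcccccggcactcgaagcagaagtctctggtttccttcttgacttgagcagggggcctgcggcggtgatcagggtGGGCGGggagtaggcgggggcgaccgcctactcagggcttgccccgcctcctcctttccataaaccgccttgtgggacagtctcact
Ptgs1, chr3:39981169-39981418, plus strand: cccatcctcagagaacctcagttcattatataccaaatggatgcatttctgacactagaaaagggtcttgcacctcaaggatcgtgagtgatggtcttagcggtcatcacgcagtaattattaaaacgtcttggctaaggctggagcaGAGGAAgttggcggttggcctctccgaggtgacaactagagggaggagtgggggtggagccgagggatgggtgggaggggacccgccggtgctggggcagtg
The GC box stands in the windows of Alox5, Lta4h, Ptges, Ptgs2 and Alox12, and in 30.5% of the 33469 rat promoters in the table. The PU.1 core, named for a transcription factor of macrophages and other myeloid cells, stands in those of Lta4h, Ptges and Ptgs1 and in 23.3% of all promoters. The STAT6 site (6.25% of all promoters) was matched in 0 of the 7 windows and the GATA site (10.3%) only in that of Alox12. A match is a run of letters and not a measured binding site.

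The 6 atria were unlike in cell markers. The median log2 signal lay between 5.82 and 5.85, which follows from the quantile normalization of the deposited values. Atrial myosin light chain Myl7 lay between 13.61 and 13.76 on all arrays. Control 3 stood apart: its erythroid markers were on average 2.14 log2 units above their 6-array means, against -0.89 to -0.10 in the other arrays, and Myl2, the ventricular myosin light chain (named after its values were seen), had a log2 signal of 8.60 there and at most 4.89 elsewhere. Macrophage markers (19 genes) were lowest in RAP 2, at -0.61 from their means, and highest in control 2, at 1.06. In RAP 1, RAP 3, control 1 and control 3 they stood at -0.38, 0.25, 0.11 and -0.42. In tissue RNA, fewer cells of a type and less RNA per cell cannot be told apart.

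In every pair the RAP rat had less Alox15 signal than its control. The log2 signal was 9.35, 8.14 and 9.44 in RAP 1, 2 and 3, against 10.69, 9.08 and 11.89 in control 1, 2 and 3. The changes within pairs were -1.34, -0.94 and -2.44, with a mean of -1.57, and 14 of 11237 genes had a larger mean fall. The groups overlapped, since RAP 1 and RAP 3 lay above control 2. The RAP rats had an SD of 0.73 (n = 3) and a range of 1.3 log2 units, and the controls spread more widely, with an SD of 1.41 (n = 3) and a range of 2.81.

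The highest Alox15 value came from control 3, the atrium with the erythroid signal. Slc4a1, the band 3 anion exchanger of the red cell membrane, had a log2 signal of 7.42, 6.63 and 7.02 in RAP 1, 2 and 3 and of 7.32, 6.52 and 10.36 in control 1, 2 and 3. Alas2, the first enzyme of erythroid heme synthesis, had 11.88 in control 3 and 8.92 to 9.78 in the other 5 arrays, and Ahsp, the chaperone of alpha globin, had 9.95 there and 5.67 to 6.80 elsewhere. All 6 tested erythroid genes were high in control 3 and their mean change in pair 3 was -2.84, while it was 0.13 in pair 1 and 0.66 in pair 2, where Alox15 was lower with RAP by 1.34 and 0.94. Without pair 3 the mean change of Alox15 was -1.14, and against control 1 and control 2 alone the RAP mean was 0.91 lower (-0.91). General macrophage markers were highest in control 2, which had the lowest Alox15 of the controls. Of 11 tested markers of serous cavity macrophages 2 fell and 0 rose, and the list mean stood at -0.01, -0.50 and 0.00 in RAP 1, 2 and 3 and at -0.07, 0.50 and 0.07 in control 1, 2 and 3. One of these 2, Prg4, the lubricating proteoglycan 4, which cells of joint and serosal linings make too, was lower in all 3 pairs as Alox15 was. Its log2 signal was 8.63, 8.01 and 7.0 in RAP 1, 2 and 3, against 10.25, 10.17 and 9.82 in control 1, 2 and 3, without overlap (changes -1.62, -2.16 and -2.83, mean -2.2, SE 0.26). F5, the coagulation factor V, changed by -0.49 (SE 0.17), a call that was lost by the methods' t-test. The part of any of these cell types in the Alox15 values was not tested.

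The 8 genes whose course over the 6 arrays was closest to that of Alox15, by the root mean square difference of log2 values centred on each gene's mean, were Rsad2, Slc4a1, Slc38a5, Agtr1a, Gch1, Plagl1, Cd226 and Mal2, at 0.64 to 0.73 log2 units. Rsad2, the interferon-induced viperin, came first among 11236 genes and had a log2 signal of 6.37, 5.58 and 6.79 in RAP 1, 2 and 3, against 6.28, 5.51 and 9.03 in control 1, 2 and 3. Its high value is thus control 3 alone, as with Slc4a1. Plagl1, a zinc finger transcription factor, shared the high control 1 too, with 8.04, 7.71 and 7.78 after RAP and 9.53, 7.85 and 9.08 after control pacing. The ranking is a description from the values by which Alox15 was chosen. It leans on control 3, where Alox15 lay 2.12 above its mean, so genes high in that array rank near. Of the 6 tested erythroid genes, all high in control 3, 4 were among the 100 nearest of 11236. Among the eicosanoid genes Ptgs1 was nearest, at rank 122 and 0.97 log2 units, followed by Ptgs2 at rank 130, while Alox5ap was at rank 10711. The distance depends on the size of the deviations too, and these ranks do not mean a close likeness. In control 3 Ptgs1 lay 0.20 and Ptgs2 0.29 above its mean, against 2.12 for Alox15.

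**Figure D1:**
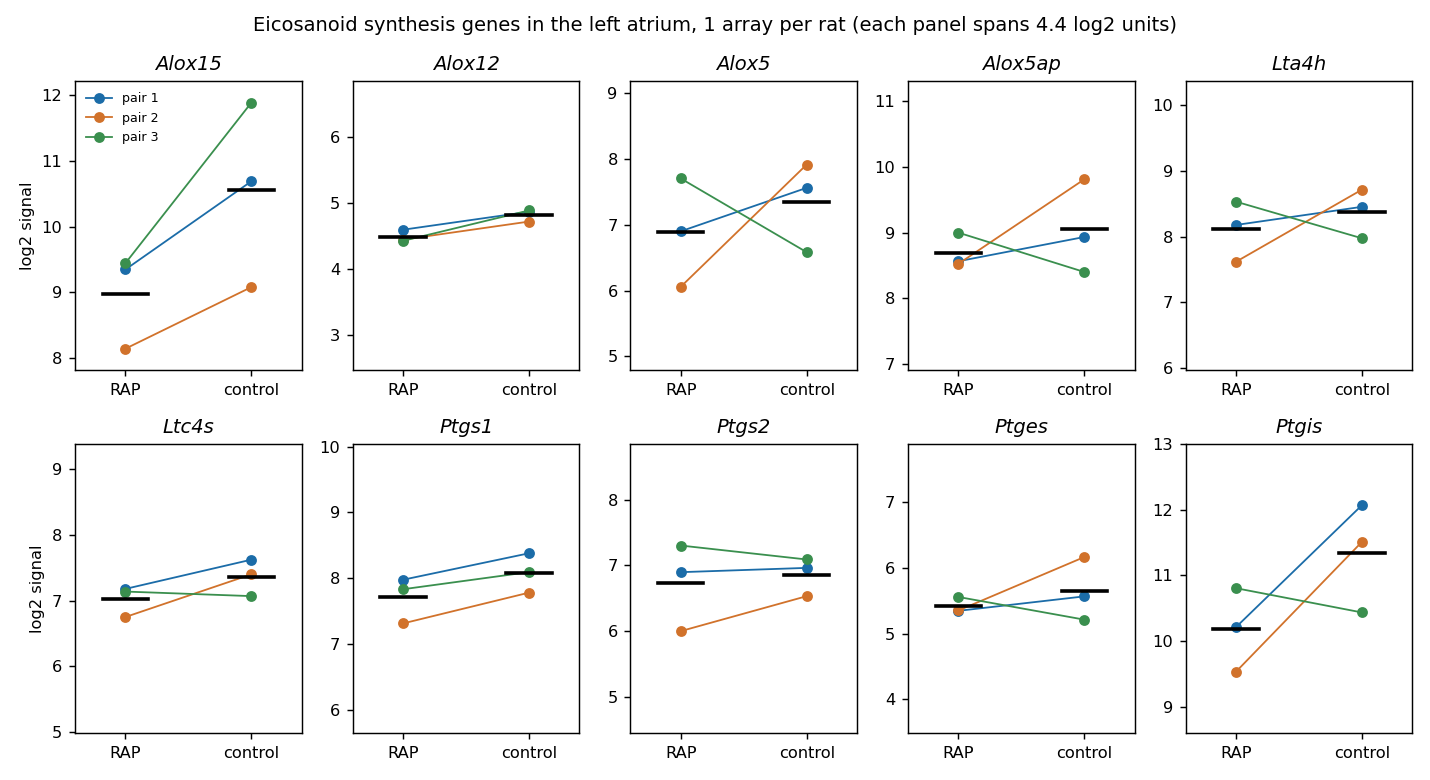
Log2 signal of the 10 genes in each rat, with RAP on the left and control pacing on the right, a line between the rats of each pair and black bars for the group means (n = 3 each). All panels span the same number of log2 units. Alox15, Alox12 and Ptgs1 are lower with RAP in each pair, while the green line of pair 3 runs the other way in the other 7 genes.

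Alox15 apart, the mean change was below 0 for all 8 tested genes, and 0 of the 8 passed the study's thresholds, which ask for a fold change above 1.3 and for an unadjusted p under 0.05, here from the paired limma fit. Of all 11237 tested genes, those that exceeded a log2 signal of 5 on any array, 6.39% passed (2.94% rose and 3.45% fell), and 51.2% had a mean change below 0. The p alone was under 0.05 for 1 of the 8, Ptgs1, and for 6.89% of all genes. The groups were free of overlap in 0 of the 8 and in 15.4% of all genes. Control 3 was the highest array for 0 of the 8 and for 9.61% of all genes. The median change of the 8 genes was -0.35, against -0.01 over all genes. After Benjamini-Hochberg adjustment 0 genes of the whole table had a p under 0.05 by this paired limma fit (smallest adjusted p = 0.70) and 0 by the methods' t-test. At an unadjusted p under 0.05 there were 774 and 637 genes. A limma fit that gave the arrays unequal weights differed and is described further below. Without pair 3, 6 of the 8 genes passed (Alox5, Alox5ap, Lta4h, Ltc4s, Ptgs1 and Ptgis), when 2497 of all genes did. In fits without pairs, Ltc4s and Ptgis passed when control 3 alone was left out, beside 1731 of all genes. When RAP 3 alone was left out, Ptgis passed, beside 1145 of all genes. Without the pair as a block 1 of the 8 passed, Ptgis, beside 870 of all genes. By the methods' t-test 0 passed, beside 234 of all genes.

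**Figure D2:**
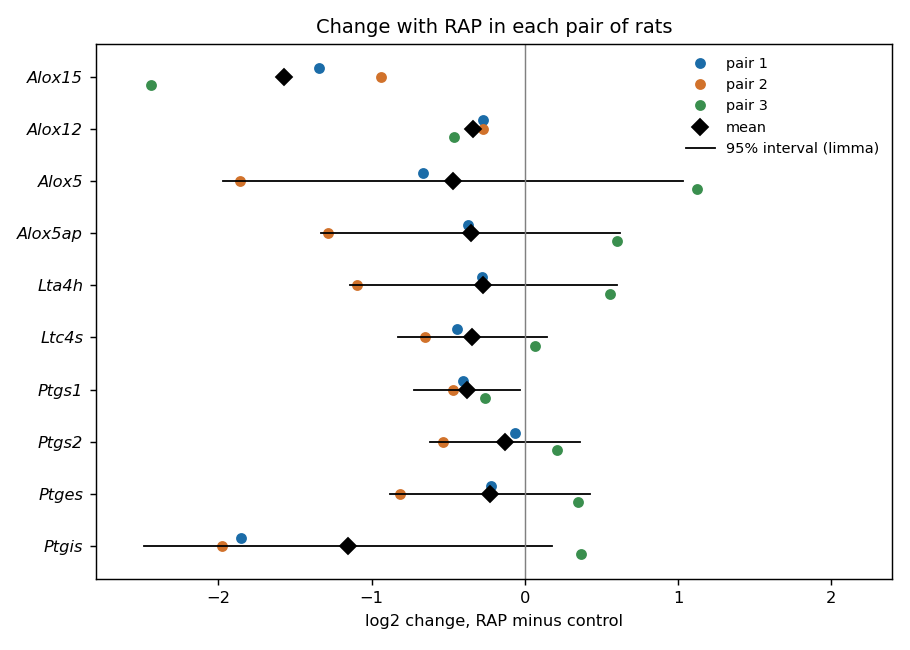
Log2 change (RAP minus control) of the 10 genes in pairs 1, 2 and 3 (coloured points), with the mean (diamond) and, for the 8 genes that were tested apart from Alox15, the 95% confidence interval from limma (line). Pair 3 lies above 0 in 7 genes and is the lowest point of Alox15, at -2.44.

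The leukotriene genes changed in opposite directions among the pairs. Alox5 had a log2 signal of 6.90, 6.06 and 7.71 in RAP 1, 2 and 3, against 7.56, 7.92 and 6.58 in control 1, 2 and 3. Its change was -0.66 in pair 1, -1.86 in pair 2 and 1.12 in pair 3, a mean of -0.47 (SE 0.58, 95% interval -1.97 to 1.03, limma adjusted p = 0.85). Within each group the lowest and highest rat thus lay further apart than the group means. Alox5ap, which presents arachidonic acid to Alox5, had 8.57, 8.53 and 9.0 after RAP and 8.94, 9.81 and 8.40 after control pacing, a mean change of -0.35 (SE 0.37, interval -1.33 to 0.62). Lta4h had 8.18, 7.62 and 8.53 after RAP and 8.45, 8.71 and 7.97 after control pacing, a mean change of -0.27 (SE 0.33, interval -1.14 to 0.60). In all 3 genes control 2 was the highest array, and pair 3 ran against pairs 1 and 2. Ltc4s was the steadiest of the branch, with 7.18, 6.75 and 7.14 after RAP and 7.62, 7.40 and 7.07 after control pacing. It was lower by 0.44 and 0.65 (changes of -0.44 and -0.65) in pairs 1 and 2 and stood at 0.07 in pair 3, a mean of -0.34 (SE 0.19, interval -0.83 to 0.15).

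A course of lower values in pairs 1 and 2 and higher values in pair 3 was found in 7 of the 9 genes other than Alox15, and in 21.7% of all tested genes. RAP 2 was the lowest array in 6 of the 9 (25.2% of all genes) and control 2 the highest in 4 (19.2%). Markers of several cell types took the same course. The mean change of the macrophage markers, such as the complement subunit C1qc and the lysosomal protein Cd68, was -0.50, -1.68 and 0.67 in pairs 1, 2 and 3. That of 11 mast cell markers was -0.78, -1.94 and 1.09, and that of 12 fibroblast markers -0.43, -1.31 and 0.63. Of these lists 1 of 19, 0 of 11 and 1 of 12 genes fell and 0 rose. The macrophage gene that fell was Vsig4 (-1.50, SE 0.49). Its change was -0.81 without pair 2, so it did not take this course as the list mean did. The call was lost by the methods' t-test. Mast cell levels ranged from -1.15 in RAP 2 to 0.79 in control 2. Neutrophil markers (10 tested, 1 fell) changed by -0.24, -1.54 and 0.35. Of the eosinophil list only 4 of 12 genes could be tested, 1 of them Alox5 itself. Of the 4, 0 fell and 1 rose, the granule protein Prg2, with 4.67, 4.63 and 5.56 after RAP and 4.35, 4.36 and 4.76 after control pacing (change 0.46, SE 0.17), above a log2 signal of 5 in RAP 3 alone and without a call when the block was left out. The eosinophil peroxidase Epx (4.55 to 4.88) and the receptor Ccr3 (2.32 to 2.71), both named after their values were seen, were under a log2 signal of 5 on all arrays. The part of these cell types in the values of the leukotriene genes was not tested.

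**Figure D3:**
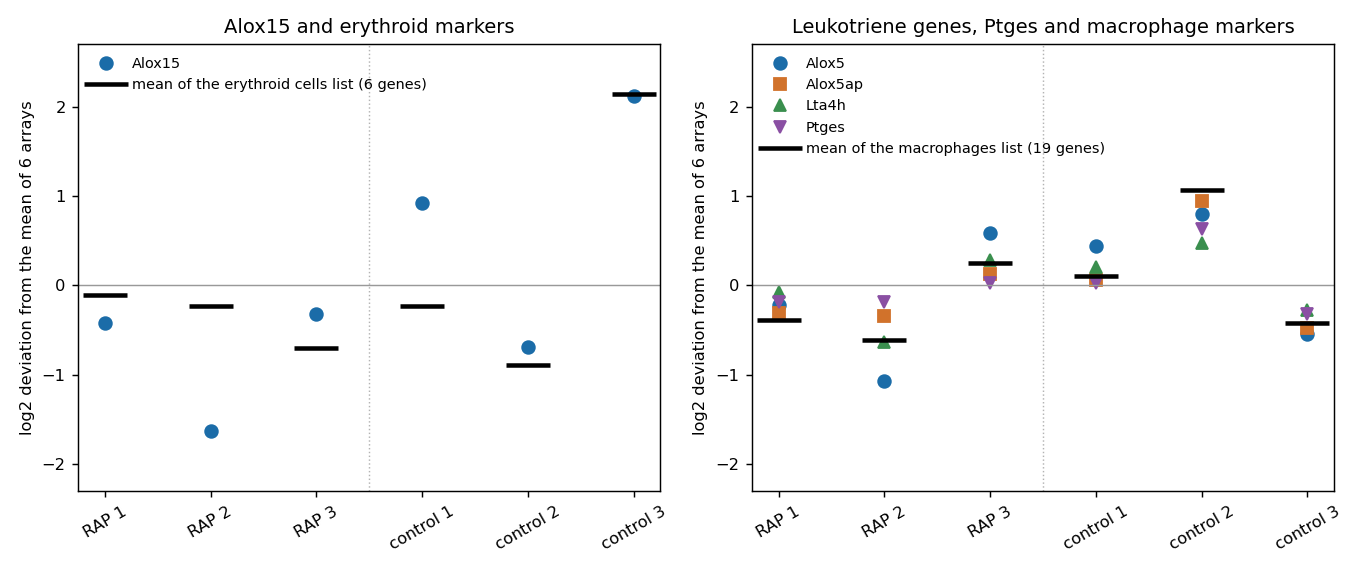
Deviation of log2 signal from the mean of the 6 arrays, by array with the RAP arrays on the left, for Alox15 beside the mean of 6 erythroid markers (left panel) and for Alox5, Alox5ap, Lta4h and Ptges beside the mean of 19 macrophage markers (right panel). Control 3 is the highest array for Alox15 and the erythroid list (both near 2.1), and control 2 the highest for the macrophage list (1.06) and the 4 genes beside it.

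Of the prostanoid branch, Ptgs1, the constitutive cyclooxygenase, was lower with RAP in each pair and fell just short of the study's fold threshold. Its log2 signal was 7.98, 7.31 and 7.83 in RAP 1, 2 and 3, against 8.38, 7.78 and 8.09 in control 1, 2 and 3. The changes were -0.40, -0.47 and -0.26, with a mean of -0.38 (SE 0.13, interval -0.72 to -0.03, limma adjusted p = 0.70). That is a fold size of 1.299, and the threshold is 1.3. The groups overlapped, since control 2 lay under RAP 1 and RAP 3, and the range within each group, 0.66 after RAP and 0.60 after control pacing, exceeded the mean change. Ptgs2, the inducible cyclooxygenase, had 6.90, 6.0 and 7.30 after RAP and 6.96, 6.53 and 7.09 after control pacing, a mean change of -0.13 (SE 0.19, interval -0.62 to 0.36). It was the one gene of the 10 with its highest value in a RAP rat, RAP 3.

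Ptgis, which makes the vasodilator prostacyclin, had the second largest mean change of the group. Its log2 signal was 10.21, 9.54 and 10.80 in RAP 1, 2 and 3, against 12.07, 11.51 and 10.43 in control 1, 2 and 3. The changes were -1.86, -1.98 and 0.37, so the gene was over 1.8 log2 units lower in pairs 1 and 2 and not in pair 3. The mean of -1.15 (SE 0.51, interval -2.48 to 0.18, limma adjusted p = 0.70) did not pass, and it was -1.92 without pair 3 and -0.74 without pair 2. A second probe set of the gene, at signals of 5.26 to 6.87, had changes of -0.97, -1.60 and 0.49. Ptges, the inducible prostaglandin E synthase, was dim, at 5.35, 5.36 and 5.56 after RAP and 5.57, 6.17 and 5.21 after control pacing, with a mean change of -0.23 (SE 0.25, interval -0.88 to 0.42).

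Markers of linings and vessels, which are known to make prostacyclin, were set beside Ptgis. Of 11 tested genes of mesothelium and epicardium 3 fell and 0 rose: Msln, the surface protein mesothelin (-0.71, SE 0.14), Tbx18, a transcription factor of the epicardium (-1.31, SE 0.21), and Wt1, another epicardial transcription factor (-0.85, SE 0.19). The call of Wt1 was lost without the block, and its change was -0.35 without control 1. Their list mean stood at -0.29, -0.34 and -0.03 in RAP 1, 2 and 3 and at 0.71, -0.41 and 0.37 in control 1, 2 and 3, so it was high in control 1, as Ptgis was, and low in control 2, as Ptgis was not. Of 12 endothelial and 12 smooth muscle and pericyte markers 0 fell and, of the second list, 1 rose, with median changes of 0.04 and 0.11. The fibroblast markers, like the macrophage and mast cell markers, took the pair course of Ptgis, with changes of -0.43, -1.31 and 0.63. The fibroblast list mean stood at -0.22, -0.65 and 0.31 in RAP 1, 2 and 3. In control 1, 2 and 3 it stood at 0.21, 0.67 and -0.32, so it was highest in control 2, and Ptgis in control 1. The part of any of these cells in the Ptgis values was not tested.

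Alox12, the platelet-type lipoxygenase and a chromosome neighbour of Alox15 with only Alox12e between them, lay under a log2 signal of 5 on all 6 arrays and was therefore not tested. Its values were 4.59, 4.44 and 4.43 in RAP 1, 2 and 3 and 4.87, 4.72 and 4.89 in control 1, 2 and 3. The groups did not overlap, as in 7.85% of the genes tested with RAP lower, and the mean change was -0.34 at a signal level where the size of a change is uncertain. Alox12e, the epidermal lipoxygenase of the same cluster, was equally dim, at 4.36 to 4.62 on all arrays. Beside Alox15, a course of lower values in all 3 pairs was found in 2 of the 9 genes, Alox12 and Ptgs1, and in 14.1% of all tested genes.

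Platelet markers divided. Of 7 tested genes 3 fell, 0 rose and 4 did not pass, with a median change of -0.72. Pf4, the chemokine platelet factor 4, which macrophages make too, had 8.14, 7.75 and 8.05 in RAP 1, 2 and 3, against 8.88, 9.19 and 9.36 in control 1, 2 and 3 (change -1.16, SE 0.19). Itgb3, the beta 3 integrin of platelets and of other cells, changed by -1.26 (SE 0.39) and Gp1ba, the von Willebrand factor receptor of platelets, by -0.72 (SE 0.21). The list mean stood at -0.21, -0.39 and -0.34 after RAP and at 0.40, 0.26 and 0.28 after control pacing, without overlap. The 4 genes that did not pass, named after their values were seen, were P2ry12, the ADP receptor of platelets and microglia (-0.51, -1.57 and -0.08 in pairs 1, 2 and 3), and Ppbp, Gp5 and Gp9, which are more restricted to platelets. Ppbp, the platelet basic protein, changed by 0.01, 0.12 and -0.43, Gp5 by -0.07, 0.23 and -0.52 and Gp9 by -0.19, 0.15 and -0.89. These 3 genes, and Gp1ba too, were too dim for the stricter filter, a log2 signal above 6 on at least 3 arrays. The size of their changes is therefore uncertain. The calls of Itgb3 and Gp1ba were lost by the methods' t-test and that of Pf4 was not. The part of platelets in the Ptgs1 and Alox12 values was not tested.

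Around these 10 genes, few of the pathway passed. Of 77 tested genes of arachidonic acid release, other synthases, the cytochrome P450 branch, receptors, breakdown and interleukin 4 and 13 signalling, 2 rose and 3 fell, which is 6.49% and close to the 6.39% of all genes. The median change of the 77 was -0.12. Upstream, 2 of 14 tested genes of arachidonic acid release fell. Pla2g2a, a secreted phospholipase A2, had 12.45, 11.71 and 11.61 in RAP 1, 2 and 3, against 12.79, 12.79 and 12.72 in control 1, 2 and 3 (change -0.85, SE 0.20). Its control values agreed closely and the groups did not overlap. Mboat7, which moves arachidonic acid into phosphatidylinositol, had 7.70, 7.49 and 7.54 after RAP and 8.27, 8.12 and 7.85 after control pacing (change -0.50, SE 0.14), again without overlap.

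Downstream, 0 of 13 tested receptors and 0 of 9 other lipoxygenases and prostanoid synthases passed. The largest receptor change was that of Ptger3, an inhibitory prostaglandin E receptor, with 5.80, 5.53 and 5.80 after RAP and 7.86, 6.42 and 5.82 after control pacing. Its change was -0.99 (SE 0.40), and control 3 lay within 0.02 of RAP 3 (pair 3 change -0.02). Ptger4, a stimulatory prostaglandin E receptor, changed by -0.49 (SE 0.23). Tbxas1, the thromboxane synthase of platelets and macrophages, changed by -0.35, -1.73 and 0.59 in pairs 1, 2 and 3, the course of the leukotriene genes. Ptgds, a prostaglandin D synthase, ran the other way, at 0.31, 2.15 and -1.33. Of 13 genes of the cytochrome P450 branch 0 passed. Ephx2, the soluble epoxide hydrolase, had the largest change of these, 0.87 (SE 0.36), with 4.97, 7.07 and 7.04 after RAP and 5.05, 6.06 and 5.36 after control pacing, and Cyp1b1 changed by -0.49 (SE 0.38).

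Of 14 tested genes of breakdown and transport 1 rose, Ptgr2, a reductase that inactivates keto prostaglandins, with 9.23, 9.50 and 9.25 after RAP and 8.57, 8.38 and 9.13 after control pacing (change 0.63, SE 0.22). The groups did not overlap, and pair 3 gave 0.12. Interleukin 4 and interleukin 13 are known to induce ALOX15 in human monocytes. Of 14 tested genes of that signalling 1 fell, the kinase Jak3 (-0.44, SE 0.16), and 1 rose, the nuclear receptor Pparg (0.53, SE 0.19). Pparg had 5.90, 6.09 and 7.22 after RAP and 5.46, 5.90 and 6.26 after control pacing. Pparg is also a gene of fat cells, and of 10 adipocyte markers 4 rose and 0 fell, with the list mean at -0.50, -0.10 and 1.54 in RAP 1, 2 and 3 and at -0.96, -0.42 and 0.42 in control 1, 2 and 3. The part of fat cells in the Pparg values was not tested. The Pparg call was lost without the block and by the methods' t-test, and its change was 0.12 without RAP 3. Without pair 3, 28 of the 77 genes passed beside 2497 of all genes, without pair 1 it was 2 beside 161 and without pair 2 it was 3 beside 378. By the methods' t-test 1 of the 5 calls, that of Mboat7, was kept.

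**Figure D4:**
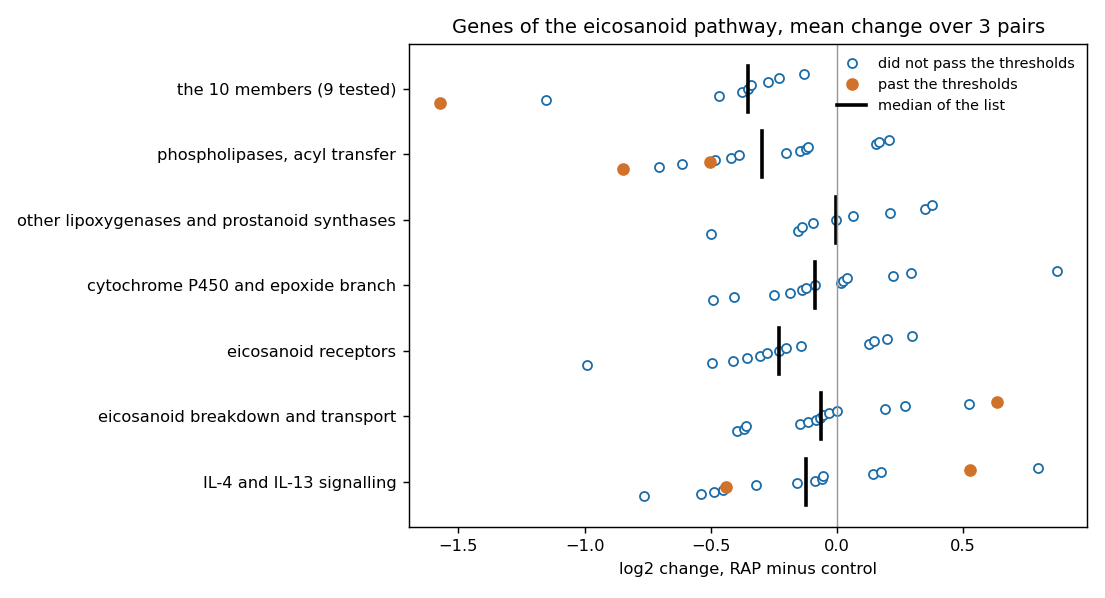
Mean log2 change (RAP minus control) over 3 pairs of each tested gene, for the eicosanoid genes and the 6 lists of the surrounding pathway. Filled points passed the study's thresholds, open points did not, and black bars are list medians. Of the eicosanoid genes only Alox15, which was picked for its fall, is filled, and the 5 filled points of the other lists are Pla2g2a, Mboat7, Jak3, Pparg and Ptgr2.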

How the data were processed

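RNA from 6 left atria was hybridized to 1 Rat Gene 1.0 ST array per rat. The authors deposited 1 log2 signal for each probe set, made with Partek Genomics Suite and its robust multiarray averaging (background correction, quantile normalization, summary of probes) with default parameters. The software version and a genome build are not given in the sources used here. Values were used as deposited. Symbols came from the array annotation (15310 probe sets with 1 symbol, 323 with several, 13581 with none). As in the study's methods, a probe set was kept if any array exceeded a log2 signal of 5 (19907 of 29214, 11237 genes).

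The contrast RAP minus control was fitted with limma 3.58.1 in R 4.3.3 over all kept probe sets, with the pair as a block (2 residual and 2.76 prior degrees of freedom). Rose and fell are used of genes with a fold change over 1.3 whose unadjusted p was below 0.05. The Benjamini-Hochberg adjustment ran over the whole table of genes. The study's methods pair the rats, and the pairs used here rest on the replicate numbers alone. The deviations of arrays with the same number from their group means were correlated at 0.22, -0.24 and -0.32. The paper described similarity within its pairs, which these values do not show. Each change within a pair, each count over 3 pairs and the blocked fit rest on this matching. The smallest two-sided p of an exact permutation test is 0.1 for 3 against 3 arrays and 0.25 for 3 pairs, and the number of arrays limits the precision.

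The members and lists were chosen with earlier results of these data known. Named are the 10 members, pathway genes past the thresholds or, in lists with none, the 2 largest changes, up to 4 markers per cell type (highest signal or past the thresholds), and the 8 genes nearest to Alox15. Alternatives were no block, the methods' t-test, a variance trend, array weights, other filters and scalings, the mean of probe sets, and leaving out a pair or, in a fit without pairs, an array.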

Additional observations from a re-analysis of the deposited data

How the results depend on the processing

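With 3 rats a group, the counts depended on which rats were kept. Over the settings that left out a pair or, unpaired, a single array, between 161 and 2497 of all genes, 0 to 7 of the eicosanoid genes and 2 to 28 of the 77 surrounding pathway genes passed, where the eicosanoid count includes Alox15, chosen on this contrast. The highest counts came without pair 3. The methods' t-test gave 234, 0 and 1, and array weights gave 2650, 5 and 28. With array weights the 5 eicosanoid genes were Alox15, Alox5, Ltc4s, Ptgs1 and Ptgis. The limma adjusted p there was 0.031 for Ptgis, 0.037 for Ptgs1, 0.044 for Ltc4s and 0.12 for Alox5. Only this setting brought an eicosanoid gene under an adjusted p of 0.05. Without the pair as a block 870 of all genes, 1 eicosanoid gene (Ptgis, and no longer Alox15) and 8 pathway genes passed. The remaining settings that kept all 6 arrays left these 3 counts within 1.5 times, and Alox15 was the eicosanoid gene that passed. Its mean change lay from -2.31 to -0.91 with an array or pair left out. Since Alox15 was chosen for its fall and was lower in every pair, leaving out a pair could not turn its sign. In the same settings the change turned sign for Alox5 (-1.26 to 0.23), Alox5ap (-0.83 to 0.11), Lta4h (-0.69 to 0.14), Ptgs2 (-0.41 to 0.24), Ptges (-0.52 to 0.062), Tbxas1 (-1.04 to 0.12), Cyp1b1 (-0.92 to 0.027) and Ptgds (-0.51 to 1.23), in each without pair 2, and for Ppbp (-0.24 to 0.066) and Gp5 (-0.29 to 0.080) without pair 3. The calls of Pf4, Prg4, Msln and Tbx18 held in every setting run. Those of Wt1, Pparg and Prg2 were lost without the block and by the methods' t-test. Those of Pla2g2a, Ptgr2, Jak3, Itgb3, Gp1ba, F5 and Vsig4 were lost by that t-test. Prg2 was also lost with array weights and with further quantile normalization. The calls of Mboat7, Ptgr2, Jak3, Itgb3, F5 and Prg2 were lost without pair 1 and also without pair 2. Those of Wt1, Pparg, Gp1ba and Vsig4 were lost without pair 1. The change of Pla2g2a was -0.47 with array weights and that of Ptgr2 was 0.39 without pair 2. Other scalings of the arrays turned none of the named changes. The cause of these shifts was not tested. Alox12 could be tested only without the filter, and Ptges not under the stricter filter. Signals near or under 5 carry little information on the size of a change.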

Other observations

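Some genes of prostaglandin handling took a course over the arrays opposite to that of the leukotriene genes, high in RAP 2 and control 3 and low in RAP 3 and control 2. Ptgds had a log2 signal of 7.72, 8.63 and 7.46 in RAP 1, 2 and 3, against 7.41, 6.48 and 8.78 in control 1, 2 and 3. Hpgd, the dehydrogenase that inactivates prostaglandins, had 5.14, 6.27 and 4.83 after RAP and 5.24, 4.70 and 6.73 after control pacing. Ptgfr, the receptor for prostaglandin F, had 8.10, 8.13 and 5.78 after RAP and 7.59, 6.27 and 7.78 after control pacing, so RAP 1 was high as well. None of these 3 genes passed, and Hpgd and Ptgfr were named after their values were seen.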
